A study of Mus musculus with 2 samples.

Results

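Mature goblet cells were described here in the small intestine of mice that carry a Neurog3-driven Cre and a tomato reporter, with and without floxed FoxO1. They were cells high in the secreted mucus products Clca1, Zg16, Muc2 and Fcgbp and less high in the crypt goblet genes Agr2, Rep15 and Guca2a. Of 12591 deposited cell barcodes, 8761 had at least 500 genes, at least 1000 unique molecular identifiers (UMIs, each standing for 1 captured mRNA molecule) and at most 25% mitochondrial UMIs, and 1329 of these were mature goblet cells. They were chosen on measured values. Each gene's log count was scaled to a z-score over the kept barcodes of both libraries, score A was the mean z of Clca1, Zg16, Muc2, Fcgbp, Sytl2 and Mxd1, and score B was the mean z of Agr2, Rep15, Guca2a, Fkbp11, Ccl9 and Spdef. A cell was taken when A was above 0.5 and above B, and when defensins, the products of Paneth cells, made up less than 10% of its UMIs. Levels of these 12 genes are therefore given as a description, and so is every contrast of these cells with other cells.

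The series held 1 library per genotype, both of strains carrying Neurog3Cre and Rosa26tdtomato. The WT library had no floxed allele, and the NFKO library was Neurog3Cre-FoxO1 f/f, designed to remove FoxO1 where Neurog3 has driven Cre. Each library came from epithelial cells of the whole small intestine of 4 to 5 mice aged 4 to 6 weeks, pooled before sorting, so that mice cannot be separated and no test between genotypes was possible. The model reaches cells whose ancestors expressed Neurog3, the factor that starts endocrine development, so goblet cells of this lineage are not all goblet cells of the gut. Intervals are 95% intervals for counting error only and say nothing of the spread between mice.

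Goblet cells secrete the mucus that separates the epithelium from bacteria. Muc2 is the gel-forming mucin of this layer, Fcgbp is bound within it, Clca1 is a protease that remodels it, Zg16 is a lectin that binds Gram-positive bacteria, and Tff3 is a trefoil peptide of epithelial repair. A goblet cell matures while it moves from crypt to villus, where it fills with granules.

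The libraries stood apart in ways that bear on what follows. They held 90002878 UMIs in 5051 barcodes for WT and 124300388 UMIs in 7540 barcodes for NFKO. The mitochondrial limit was passed by 35.6% of WT barcodes and by 17.3% of NFKO barcodes. By Xist and 4 Y-linked genes, 2540 of 3129 kept WT barcodes typed as male and 6 as female, against 366 male and 4594 female of 5632 kept NFKO barcodes, so that sex and genotype cannot be told apart in most cells. 6 barcode sequences occurred in both libraries, and 1 of them was a mature goblet cell in both. Foxo1 was not lost from the mature goblet cells of the library labelled NFKO: 48 UMIs were counted in WT, or 11.05 CPM (UMIs per 1000000 UMIs of the summed cells), and 136 in NFKO (9.07 CPM), a ratio of 0.821 (0.587 to 1.17). Counts of 3′ ends need not read the deleted exon, so this count does not check the genotype, and the second group is called the library labelled NFKO, or NFKO for short.

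Mature goblet cells made up a larger share of the library labelled NFKO. They were 247 of 3129 kept barcodes in WT (7.89%, 6.97 to 8.89) and 1082 of 5632 in NFKO (19.2%, 18.2 to 20.3), a ratio of 2.43 (2.12 to 2.81). Crypt-type goblet cells, with B above A, went the other way at 896 cells (28.6%) in WT and 1344 (23.9%) in NFKO, a ratio of 0.833 (0.765 to 0.908). Both kinds together were 36.5% and 43.1%, a ratio of 1.18 (1.10 to 1.27). Among male-typed barcodes alone the mature share was 190 of 2540 (7.48%) in WT and 68 of 366 (18.6%) in NFKO, a ratio of 2.48 (1.85 to 3.29). The size of the ratio rested on the common scale of the scores: with z-scores taken within each library it was 1.38. Both libraries were sorted, and shares are of what passed the sort and the filters.

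**Figure D1:**
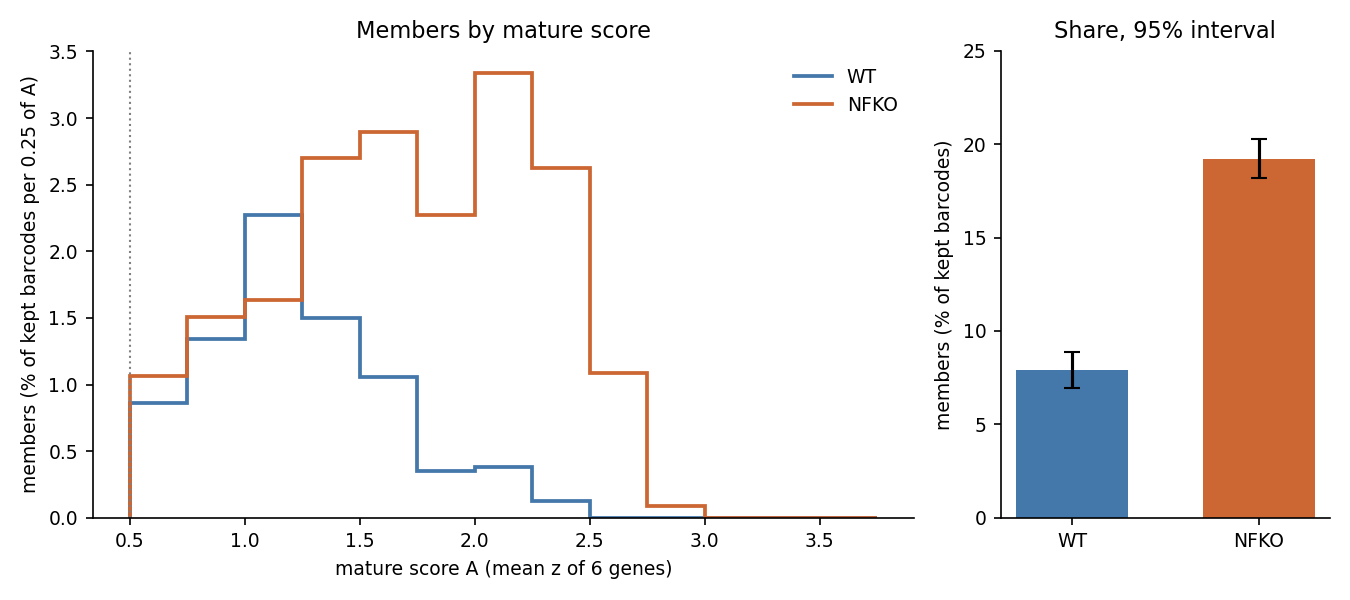
Left, mature goblet cells by score A (mean z of 6 genes, bins of 0.25) as a percentage of kept barcodes in WT (blue) and NFKO (orange), with the limit of 0.5 dotted. Right, their share of kept barcodes with 95% binomial intervals, 7.89% in WT and 19.2% in NFKO.

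The libraries also differed in where their mature goblet cells lay on score A. The median of A was 1.19 in WT (quartiles 0.968 and 1.49) and 1.74 in NFKO (1.33 and 2.16), and 16 of 247 WT cells against 402 of 1082 NFKO cells had A above 2. Score A was higher in NFKO in other cells too, so that the direction of this difference was not particular to mature goblet cells. Enteroendocrine and tuft cells were taken by marker scores above 0.5 and above 1 and by a negative score A. Their medians of A are therefore limited by that choice and are a description. The median of A was -0.775 in WT and -0.514 in NFKO enteroendocrine cells, and -0.816 and -0.598 in tuft cells. In all kept barcodes other than mature goblet cells it was -0.591 and -0.331. Crypt-type goblet cells went the other way, at 0.190 and 0.152. In mature goblet cells the median of B was 0.465 in WT and 0.165 in NFKO. Few cells lay at the limits: 9 WT and 25 NFKO cells had A between 0.5 and 0.6, with Zg16 at 12383 and 12025 CPM, and 10 and 25 cells fell just short with A between 0.4 and 0.5, with Zg16 at 18586 and 11371. At the other limit, 29 WT and 22 NFKO cells had A above B by less than 0.1, and 39 and 29 cells had A below B by as little. The defensin limit removed 3 WT and 18 NFKO cells that met both scores.

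These cells were shallow. Their median was 11938 UMIs in WT and 7706 in NFKO, against 26394.5 and 28882.5 in crypt-type goblet cells. The median number of genes was 2835 in WT and 2075.5 in NFKO, and after thinning each cell to 2000 UMIs it was 816.5 and 778. Median mitochondrial share was 6.99% in WT and 2.54% in NFKO. Ribosomal protein genes took 9.48% of their UMIs in WT and 5.40% in NFKO, against 17.8% and 17.6% in crypt-type cells.

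The mucus genes that chose the cells were also the genes that filled them. In the following, a level is a gene's CPM over all mature goblet cells of a library, a ratio is NFKO over WT, and 2498 genes passed a minimum of 100 UMIs over both libraries and 50 CPM in the higher, and their median ratio was -0.16 on the log2 scale, so that most ratios sat slightly below 1. Zg16 stood at 63454 in WT and 154842 in NFKO, a ratio of 2.44. Clca1 stood at 4084 and 8684 (ratio 2.13), and Muc2 at 12760 and 22228 (ratio 1.74). The other genes of score A were higher in NFKO too, Fcgbp at a ratio of 1.63, Mxd1, a partner of Max in differentiated cells, at 3.36, and Sytl2, a synaptotagmin-like protein of granule traffic, at 1.42, the last not when cells were weighted as below. Together the 6 genes took 10.3% of UMIs in WT and 22.2% in NFKO, and in the median cell Zg16 alone took 3.97% and 10.4%. When the NFKO cells were weighted to the WT distribution of score A, a choice made after seeing the data, the ratio of Zg16 was 2.12, that of Clca1 1.52, that of Mxd1 1.64, that of Muc2 1.16, that of Fcgbp 1.22 and that of Sytl2 0.794.

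The genes of score B were mixed. Fkbp11, an isomerase of the endoplasmic reticulum, stood at 212 in WT and 68.2 in NFKO (ratio 0.321), and Guca2a, the precursor of guanylin, at 3801 and 1765 (0.464, and 0.691 in male-typed cells alone). Agr2, the disulfide isomerase needed to make Muc2, had a ratio of 0.746 and Rep15 0.836, while Ccl9 stood at 1.01 (0.473 in male-typed cells) and Spdef, a transcription factor of goblet maturation, at 1.34.

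**Figure D2:**
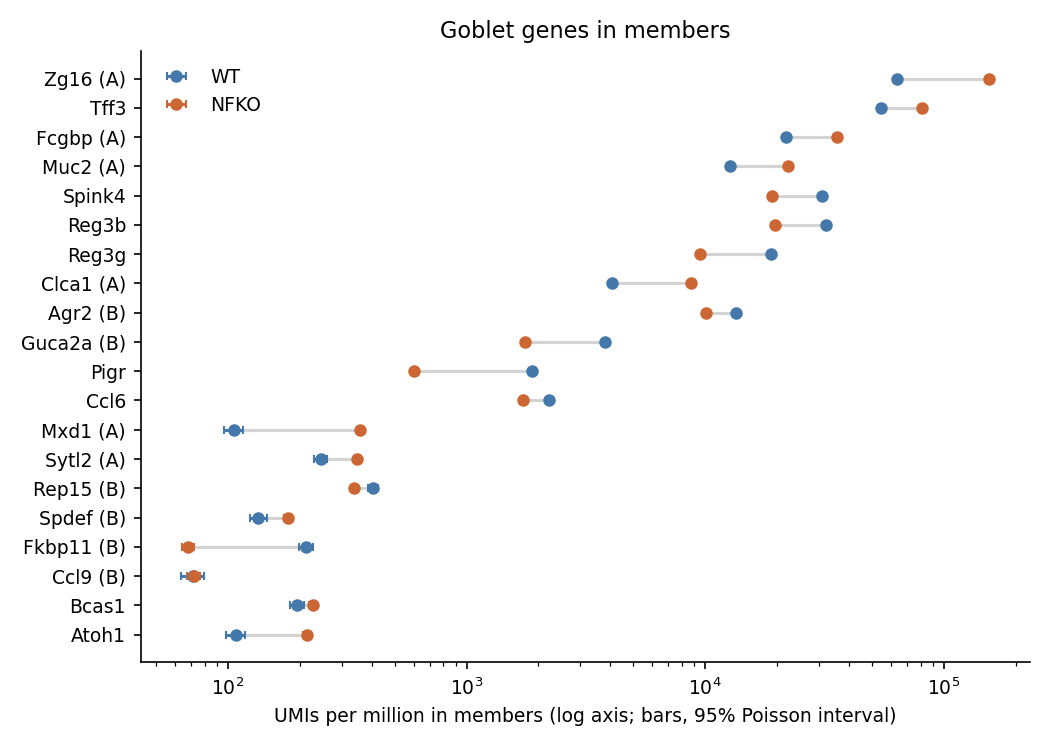
CPM (log axis) of 20 goblet genes in mature goblet cells of WT (blue) and NFKO (orange), with 95% Poisson intervals; A and B mark genes of the 2 scores. Zg16, Clca1, Muc2, Fcgbp and Mxd1 sit higher in NFKO, and Fkbp11, Guca2a, Spink4 and Pigr sit lower.

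Muc2 and Fcgbp, both on chromosome 7, are shown with the 250 bases before their start sites, from RefSeq on GRCm38.p6, because both genes carry the identity of these cells and basic helix-loop-helix factors such as Atoh1 and Neurog3 read E-box letters. Capitals mark the E-box CANNTG, which reads alike on both strands. The Muc2 window is chr7:141690090-141690339 on the plus strand and the Fcgbp window is chr7:28070986-28071235 on the plus strand.
Muc2: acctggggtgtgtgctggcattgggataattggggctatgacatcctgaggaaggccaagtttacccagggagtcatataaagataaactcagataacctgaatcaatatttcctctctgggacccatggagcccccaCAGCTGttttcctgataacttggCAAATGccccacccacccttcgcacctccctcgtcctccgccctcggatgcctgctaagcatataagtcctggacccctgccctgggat
Fcgbp: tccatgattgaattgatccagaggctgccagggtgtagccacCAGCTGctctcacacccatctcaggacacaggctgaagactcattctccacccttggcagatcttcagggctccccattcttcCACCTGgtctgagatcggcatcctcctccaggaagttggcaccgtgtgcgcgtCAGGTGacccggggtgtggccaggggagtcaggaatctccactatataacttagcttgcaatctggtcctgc
The Muc2 sites lie 112 to 107 and 89 to 84 bases before the start, and the Fcgbp sites 208 to 203, 125 to 120 and 72 to 67 bases before it. The same letters occur in 66.2% of 32851 windows of this length, and in 17 of the 19 windows found for 27 listed mucus and goblet genes, so Muc2 and Fcgbp share these letters with most promoters.

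The goblet label held against genes outside the scores. Compared with all other kept barcodes of the same library, Tff3 was 4.93-fold higher in the mature goblet cells of WT and 7.31-fold higher in those of NFKO. Bcas1 was 5.08-fold and 5.49-fold higher and Capn9, a calpain of the gut epithelium, 5.58-fold and 6.34-fold higher. The folds of Ern2, the goblet stress sensor, were 2.77 and 2.27, and those of Spink4 1.94 and 1.57. The genes outside the rule that led in both libraries were Gsta4, a glutathione transferase (20.4-fold and 23.9-fold), Ddx60, an interferon-induced helicase (9.10 and 12.3), and Fer1l6 (8.40 and 15.9). Several kinds of markers of other cells were low: immune, tuft, cycling, mesenchymal and pancreatic acinar markers each had no gene past the level minimum. The summed immune markers took 9.2e-05% of UMIs in WT and 5.3e-05% in NFKO, and the cycling markers 0.0145% and 0.0188%. Below the minimum was not absent, as the cycling marker Pcna stood at 34.5 CPM in WT, in 35.6% of cells. Enteroendocrine, Paneth and enterocyte markers were present, and are given beside the results they touch.

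Zg16 RNA also lay in cells that should lack it. It stood at 92.3 CPM in WT enteroendocrine cells and 625 in NFKO, and at 92.4 and 525 in tuft cells. After thinning to 2000 UMIs, Zg16 was seen in 99.2% of WT mature goblet cells and all 983 NFKO ones, with 1 WT and 99 NFKO cells too shallow and left out, and in 19.95% and 69.6% of enteroendocrine cells, whose median depths were 12245 and 15441 UMIs. Enteroendocrine and tuft cells had been taken with a negative score A, which includes Zg16, so their Zg16 levels are limited by that choice. As a description within that limit, Zg16 RNA in enteroendocrine cells differed 6.77-fold between the libraries, NFKO being the higher. The part of free RNA in the levels of mature goblet cells was not tested.

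Past the level minimum, NFKO over WT reached 2-fold or more upward for 81 of 2498 genes (3.24%) and downward for 71 (2.84%). For 63 and 47 of them the whole counting interval lay past 2-fold. The 2 directions were called about as often, 53.3% of calls being higher, but this balance moved with the scale: with median-of-ratios scaling 68.1% of calls were higher, and with CPM computed outside the 6 genes of score A 76.2% were, with all-gene medians of -0.04 and 0.08 in place of -0.16. Among male-typed cells alone 32.0% of calls were higher.

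**Figure D3:**
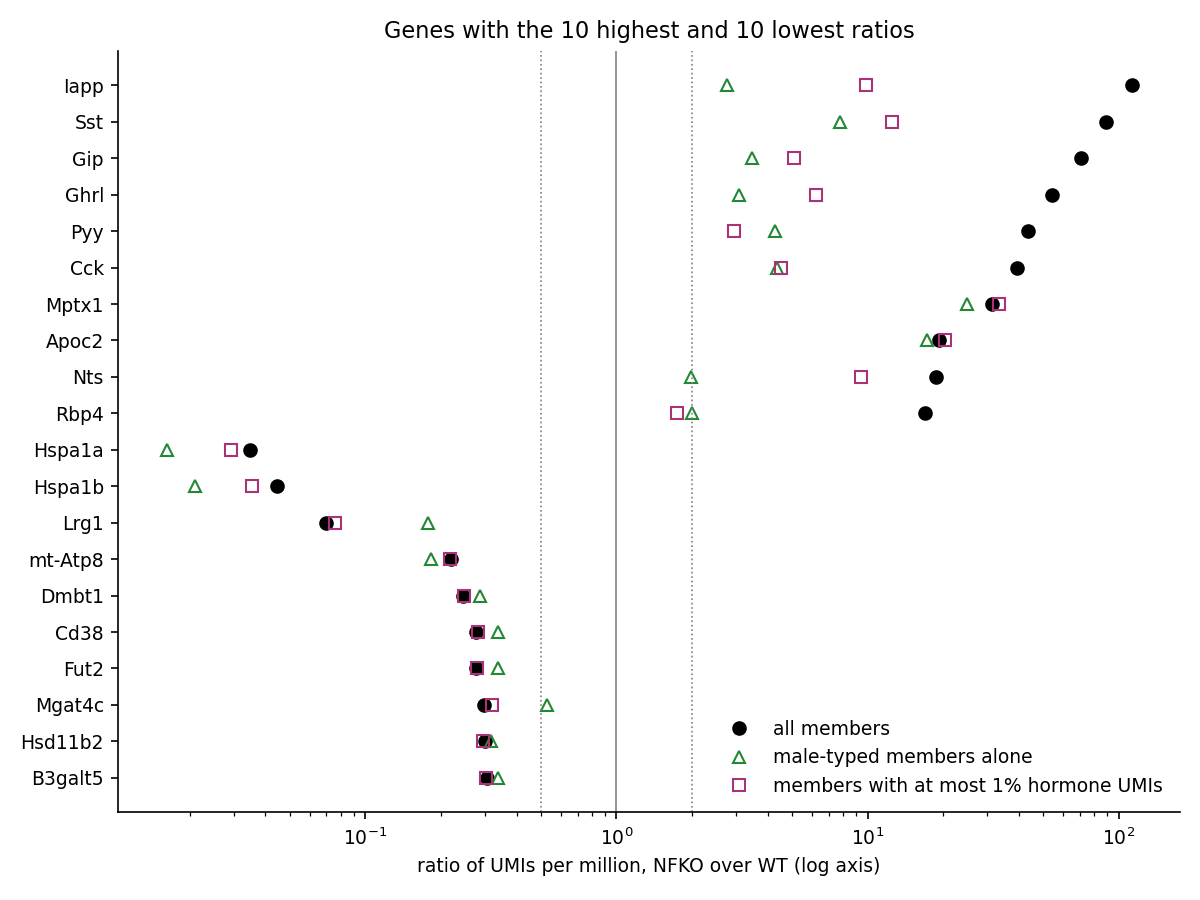
Ratio of CPM, NFKO over WT (log axis), of the genes with the 10 highest and the 10 lowest ratios in all mature goblet cells (black), in male-typed ones alone (green triangles) and in those with at most 1% hormone UMIs (purple squares). Mptx1 and Apoc2 keep ratios of 17.2 or more in all 3 sets, while Iapp goes from 112 to 2.76 in male-typed cells.

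Hormones of enteroendocrine cells led the genes that were higher. Gip, the incretin of K cells, stood at 52.9 CPM in WT and 3735 in NFKO, a ratio of 70.5 (62.0 to 80.6). Iapp, the amyloid peptide of beta cells, was counted 2 times in WT and 776 times in NFKO, a ratio of 112 (31.0 to 930). Sst (ratio 88.9), Ghrl (54.0), Pyy (43.4), Cck (39.2), Nts (18.6) and Rbp4 (16.9), a retinol carrier, followed. Of the 13 enteroendocrine markers past the minimum (17 listed), 12 were at least 2-fold higher, beside 3.24% of all genes. Their median of 2.98 on the log2 scale was 0.98 in male-typed cells alone. There Chga, Chgb, Cpe and Neurod1 of this list had ratios of 0.434, 0.188, 0.995 and 0.243. Few cells carried most of this RNA: 3 of 1082 NFKO cells held 83.4% of Sst, 88.8% of Iapp, 70.8% of Pyy and 55.6% of Cck. More than 1% of UMIs came from 8 hormone genes in 1 of 247 WT cells (0.405%) and in 82 of 1082 NFKO cells (7.58%, 6.07 to 9.32). 59 of these 82 cells were among the 6.03% of NFKO barcodes with the highest Scrublet doublet scores, beside 120 of all 1082 NFKO mature goblet cells (11.1%). Scrublet marked no NFKO barcode by its own limit, and whether these cells are doublets was not tested.

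Without the hormone-rich cells the hormone ratios were much smaller but still above 1. At most 1% hormone UMIs left Gip at a ratio of 5.11, Sst at 12.5, Iapp at 9.85, Cck at 4.53 and Pyy at 2.93, and male-typed cells alone left 3.46, 7.76, 2.76, 4.37 and 4.27. Hormone RNA also lay in tuft cells, in which enteroendocrine markers took 0.567% of UMIs in WT and 0.608% in NFKO: after thinning, Gip was seen in 54.3% of NFKO mature goblet cells and 31.2% of NFKO tuft cells, against 12.2% and 20.7% in WT, with unthinned shares of 91.9%, 95.1%, 48.2% and 41.4%. The tuft cells had median depths of 17326 UMIs in NFKO and 6741 in WT, and 6 and 7 of them were too shallow to thin. Ins1 had no UMI in any mature goblet cell, and Ins2 had 0 in WT and 5 in NFKO, in 0.370% of cells.

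Outside the hormones, Mptx1 and Apoc2 had the highest ratios. Mptx1, a secreted pentraxin, stood at 72.3 in WT and 2269 in NFKO, a ratio of 31.4 (28.1 to 35.2). It had 24.8 as its ratio in male-typed cells and 33.3 in cells low in hormone UMIs. After thinning, Mptx1 was seen in 6.91% of WT and 32.2% of NFKO mature goblet cells, and in 0.115% and 6.40% of enteroendocrine cells. Its close relative Mptx2 had a ratio of 1.53, and reads that fit both could have been lost in the counting. Apoc2, an apolipoprotein that activates lipoprotein lipase, stood at 33.6 and 647 (ratio 19.2) and was seen after thinning in 4.47% of WT and 49.6% of NFKO cells, against 1.15% and 5.31% of enteroendocrine cells. Both genes were thus more frequent in mature goblet cells than in endocrine cells of the same library. In CPM, the ratio of Mptx1 was 67.8 in crypt-type goblet cells and 47.6 in defensin-rich cells (at least 10% of UMIs). It was 53.3 in enteroendocrine cells, with 6 UMIs in WT. The higher Mptx1 in NFKO was thus not particular to mature goblet cells. The ratio of Apoc2 was 3.04, 1.78 and 5.37 in these sets, below the 19.2 of mature goblet cells. Apoc2 itself was not particular to them, at 212 CPM in WT and 378 in NFKO defensin-rich cells.

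Of 19 antimicrobial and lectin genes, 13 passed the minimum, 4 were at least 2-fold higher (Mptx1, Reg4, Saa1 and Ang4) and 1 was at least 2-fold lower (Reg1), beside 3.24% and 2.84% of all genes, with a median of -0.39 on the log2 scale. Reg4, a lectin also found in enterochromaffin cells, stood at 8.98 and 58.3 (ratio 6.49, and 2.53 among cells with A above 1), Saa1, an acute-phase protein, at 27.2 and 86.7 (3.19, and 1.64 in male-typed cells), and Ang4, a ribonuclease that kills bacteria, at 18.4 and 57.6 (3.13). Reg1 depended on the lowest scores, with a ratio of 44.0 among cells with A above 1. Abundant members were lower: Reg3b, a C-type lectin, had a ratio of 0.608 and Reg3g, its bactericidal relative, 0.503. Paneth markers, 4 of 11 at least 2-fold higher, beside 3.24% of all genes, and none lower, took 0.864% of UMIs in WT and 0.843% in NFKO, with median defensin shares of 0.283% and 0.405% per cell. The 4 were Defa21, Defa22, Defa30 and Ang4. In male-typed cells alone Defa21, Defa22 and Defa30 had ratios of 1.75, 1.60 and 1.11. The part of Paneth markers in the antimicrobial levels was not tested.

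Among interferon and antigen presentation genes, 3 of 15 past the minimum (28 listed) were at least 2-fold higher, beside 3.24% of all genes, and none 2-fold lower, with a list median of 0.03. Ido1, which breaks down tryptophan, stood at 34.8 in WT and 412 in NFKO, a ratio of 11.9 (10.1 to 14.0), and from 5.10 with NFKO weighted to WT score A to 27.2 with z-scores within each library over all settings tried. It was seen after thinning in 7.32% of WT and 38.4% of NFKO mature goblet cells, and in 0 of 872 WT and 0.857% of NFKO enteroendocrine cells, the former allowing a share of up to 0.344%. Ifit1 had a ratio of 2.89 and Isg15, a ubiquitin-like protein induced by interferon, 2.57, but in male-typed cells alone these were 1.59 and 1.67.

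Several genes of lipid absorption were higher in NFKO. Of 12 past the minimum (17 listed), 5 were at least 2-fold higher, beside 3.24% of all genes, and 1 was lower, with a median of 0.66. Beside Apoc2 these were the lipoprotein genes Apoa4 (12.7 and 86.0 CPM, ratio 6.79) and Apoa1 (74.8 and 484, ratio 6.47, and 3.30 with equal weight per cell), the retinol binder Rbp2 (4.50) and the fatty acid binder Fabp1 (2.90, but 1.47 with equal weight per cell). Fabp6, the bile acid binder of the ileum, went the other way at 999.9 and 465 (ratio 0.465, and 0.720 with NFKO weighted to WT score A), and was carried by few cells, being seen in 29.96% of WT and 12.9% of NFKO cells. Enterocyte markers shared 4 of these genes, Apoa1, Apoa4, Rbp2 and Fabp1, so that their count of 5 of 10 at least 2-fold higher adds Sis alone (ratio 2.07), a disaccharidase. The summed enterocyte markers took 0.156% of UMIs in WT and 0.296% in NFKO. Their part in the lipid genes was not tested. Clps, the cofactor of pancreatic lipase, picked out after its values were seen, stood at 87.7 and 850 (ratio 9.69).

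Glutathione and redox genes held both directions. Of 17 past the minimum (27 listed), 2 were at least 2-fold higher and 1 was lower, beside 3.24% and 2.84% of all genes, with a median of -0.24. The higher ones were Gsta1 (26.2 and 218, ratio 8.32) and Gsta4 (106 and 440, ratio 4.14), both transferases that detoxify lipid peroxides. The lower one was Gstp1 (ratio 0.320). Gsta1 shares much of its sequence with other alpha-class genes, so its count is uncertain. The peroxidase Gpx2 had a ratio of 0.529.

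Heat shock genes led the genes that were lower. Hspa1a, the inducible Hsp70 chaperone, stood at 219 CPM in WT and 7.60 in NFKO, a ratio of 0.0347 (0.0283 to 0.0422) that ran from 0.0162 to 0.0670 over all settings tried, and Hspa1b at 173 and 7.67 (0.0443). All 10 members past the minimum (16 listed) had ratios below 1 and 5 were at least 2-fold lower, with Dnajb1, the Hsp40 partner, at 0.317, Hsp90aa1 at 0.365 and Dnaja1 at 0.483, beside 2.84% of all genes. The list median was -1.02, beside -0.16 for all genes, most of which also had ratios below 1. It was -0.91 with median-of-ratios scaling and -0.64 with NFKO weighted to WT score A. Hspa1a was seen after thinning in 25.2% of WT and 1.42% of NFKO mature goblet cells, and in 37.2% and 5.65% of enteroendocrine cells. The same direction thus held in another cell type of these libraries. Hspb1, picked out after its values were seen, ran against the list: it had no UMI in WT and 99 UMIs in NFKO, at least 9.56-fold higher against a floor of 3 counts in the WT library.

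The 250 bases before Hspa1a and Hspa1b, on chromosome 17, are shown for 2 reasons: the pair had the lowest ratios, and their likeness limits how reads can be told apart. Both lie on the minus strand, the Hspa1a window at chr17:34972157-34972406 and the Hspa1b window at chr17:34959239-34959488 (RefSeq, GRCm38.p6). Capitals mark the heat shock element searched for as GAANNTTC or TTCNNGAA on both strands.
Hspa1a: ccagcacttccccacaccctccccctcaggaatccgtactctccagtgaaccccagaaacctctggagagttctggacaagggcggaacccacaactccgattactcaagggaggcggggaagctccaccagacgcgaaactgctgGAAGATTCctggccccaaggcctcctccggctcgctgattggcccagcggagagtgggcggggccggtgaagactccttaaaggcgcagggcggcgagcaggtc
Hspa1b: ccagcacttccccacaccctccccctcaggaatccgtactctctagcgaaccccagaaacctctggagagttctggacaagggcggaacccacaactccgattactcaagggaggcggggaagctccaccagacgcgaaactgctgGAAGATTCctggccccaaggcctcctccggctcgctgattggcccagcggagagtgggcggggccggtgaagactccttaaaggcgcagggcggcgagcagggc
The element lies 104 to 97 bases before both starts, and the windows were identical at 247 of 250 bases (98.8%). It occurs in 12.8% of all windows of this length, and in 7 of the 12 windows found for the 16 heat shock genes, Dnaja1, Hspd1, Hspe1, Hsph1 and Hspb1 among them.

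The other lowest genes were spread over immune, glycosylation and mitochondrial roles. Lrg1, a secreted glycoprotein of the acute phase, stood at 86.1 and 6.00 (ratio 0.0697, and 0.178 in male-typed cells), and Dmbt1, a scavenger protein of mucus, at 532 and 131 (0.245), which turned to 1.72 among cells with A above 1. Cd38, an enzyme that hydrolyses NAD, had a ratio of 0.275, Mgat4c, an N-glycan branching enzyme, 0.298 (0.871 among cells with A above 1 and 0.529 in male-typed cells), and Hsd11b2, which inactivates glucocorticoids, 0.300. mt-Atp8, at 0.219, overlaps mt-Atp6 and its count is uncertain. Pigr, which carries IgA into the lumen, stood at 1886 and 601 (ratio 0.319), with 0.324 in male-typed cells and 0.321 in cells low in hormone UMIs.

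Genes that build sugar chains on mucin were mostly near the median of all genes. Of 40 listed, 24 passed the minimum, none was 2-fold higher and 2 were 2-fold lower, beside 2.84% of all genes. The median was -0.18, or 0.04 outside the genes of score A. The 2 were Fut2, the fucosyltransferase that makes secreted H antigen (218 and 59.9, ratio 0.275), and B3galt5 (123 and 37.4, ratio 0.304). After thinning, Fut2 was seen in 31.7% of WT and 8.85% of NFKO mature goblet cells, and in 8.37% and 6.57% of enteroendocrine cells, so that the NFKO share in mature goblet cells (7.15 to 10.8) overlapped in its interval with that of enteroendocrine cells (5.45 to 7.83). C1galt1, which makes core-1 chains, had a ratio of 0.654, its chaperone C1galt1c1 0.824, Galnt7 0.828, Galnt12 1.01 and Gcnt3, the core-2 enzyme of mucin, 1.30.

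Endoplasmic reticulum genes mostly had ratios below 1, as did most of all genes, whose median was -0.16 on the log2 scale. Of 31 past the minimum (34 listed), 30 had ratios below 1, but 2 were at least 2-fold lower, beside 2.84% of all genes, Pdia5 (ratio 0.477) and Fkbp11, and none higher, with a median of -0.47. Fkbp11 and Agr2 of this list are genes of score B. Hspa5, the main chaperone of the compartment, stood at 1217 and 736 (ratio 0.605), while Xbp1, the transcription factor of the unfolded protein response, had the 1 ratio above 1, at 1.08. The list median was -0.36 with median-of-ratios scaling and -0.27 outside the genes of score A. Among ion and fluid transport genes 6 of 18 passed, none 2-fold higher and 1 lower, beside 2.84% of all genes. The lower one was Guca2a, a gene of score B, so that the count is no independent sign. Slc12a2, the basolateral chloride loader, stood at 181 and 91.5 (ratio 0.504), just short of 2-fold.

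**Figure D4:**
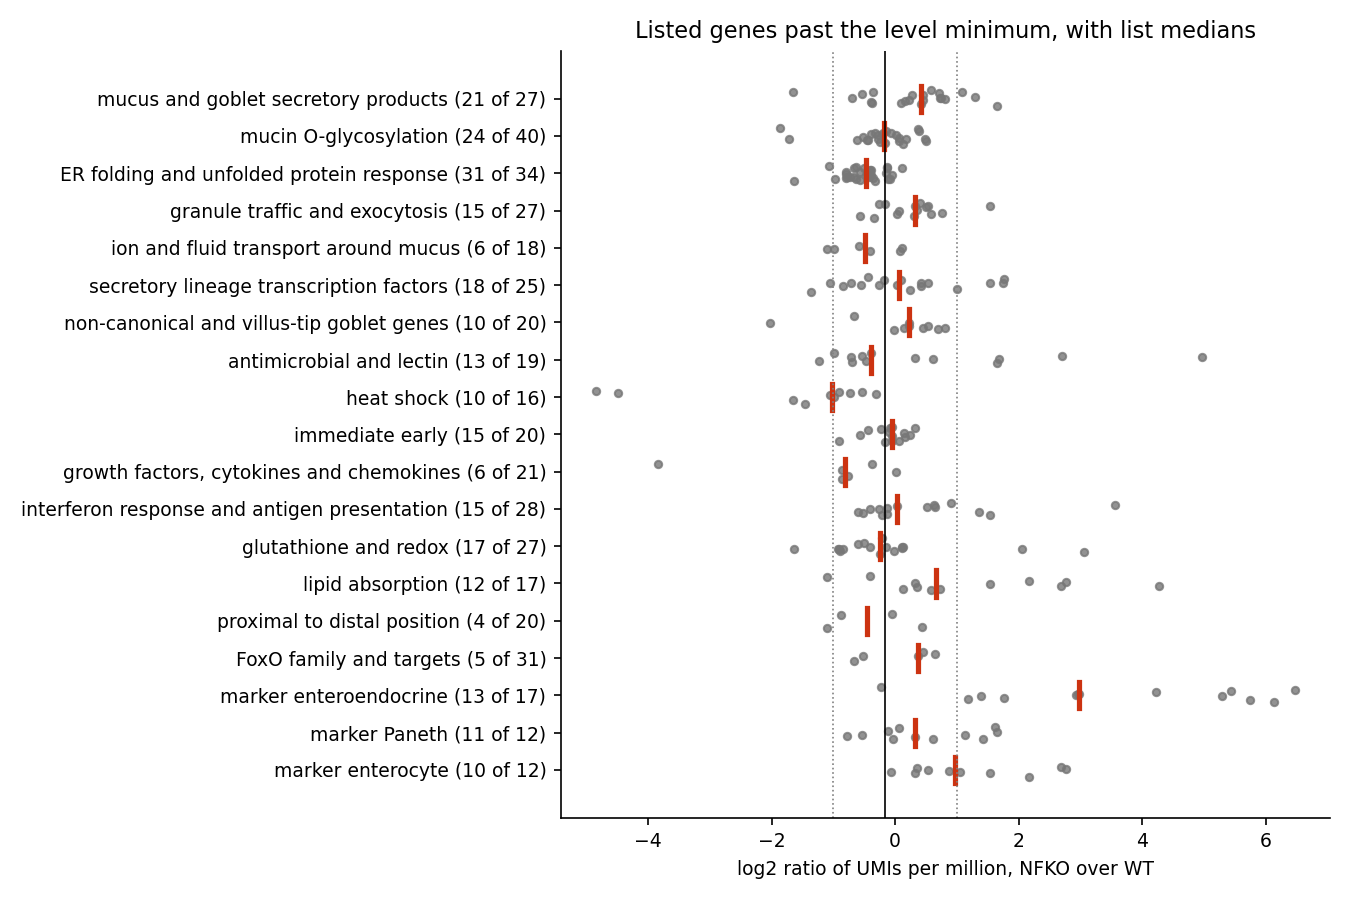
Log2 ratio of CPM, NFKO over WT, of each listed gene past the level minimum (grey points), by list with the number past the minimum and the number listed, for lists with at least 4 such genes. Red bars are list medians, from -1.02 for heat shock to 2.98 for enteroendocrine markers, the black line is the median of all genes (-0.16) and dotted lines mark 2-fold.

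Mucus and goblet products outside the scores went both ways. Of 27 listed, 21 passed, 3 were at least 2-fold higher and 1 lower (Pigr), beside 3.24% and 2.84% of all genes, with a median of 0.41. But 4 of these genes belong to the scores, so that the count is no independent sign. Tff3 stood at 54297 and 81268 (ratio 1.497), and Spink4, an inhibitor of serine proteases, at 30892 and 19072 (0.617). Muc13, a membrane mucin, had a ratio of 1.11 and Muc3 1.67. The lectin Itln1 stood at 868 and 595 (ratio 0.686), and Klk1, a kallikrein protease, at 838 and 654 (0.781).

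Granule traffic and exocytosis genes had 15 of 27 past the minimum, with a median of 0.32. Of these, 1 was at least 2-fold higher, beside 3.24% of all genes, and none was 2-fold lower. The list holds 2 genes of the scores, so that its median is no independent sign. Rab27a, which docks granules, had a ratio of 1.45, Vamp8, the vesicle protein of mucin release, 1.24, Stxbp2 1.28 and Rab3d 0.793.

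Transcription factors of the secretory lineage held 3 of 18 genes past the minimum (25 listed) at least 2-fold higher and 2 lower, beside 3.24% and 2.84% of all genes, with a median of 0.07. Atoh1, which commits cells to the secretory fate, stood at 108 and 215 (ratio 1.99), just short of 2-fold, Foxa3, a goblet and endocrine factor, had a ratio of 1.44 and Klf4, needed for goblet differentiation, 1.34. The 2-fold higher genes were Mxd1, which is in score A, the endocrine factor Neurod1 (21.6 and 73.2, ratio 3.38) and Sox4 (19.8 and 57.7, ratio 2.91). In male-typed cells alone the ratio of Neurod1 was 0.243 and that of Sox4 0.628, and in cells low in hormone UMIs that of Neurod1 was 1.63. Lower were Klf5 (ratio 0.483), a factor of dividing crypt cells, and Sox9 (62.6 and 24.2, ratio 0.387, and 0.552 with NFKO weighted to WT score A), a factor of the crypt base.

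Further lists showed little. None of 15 immediate early genes past the minimum (20 listed) was past 2-fold, with a median of -0.06, and Fos stood at a ratio of 1.05 while Jun stood at 0.531. Of growth factors and cytokines 6 of 21 passed and 1 was lower (Lrg1), beside 2.84% of all genes. Villus-tip goblet genes had 10 of 20 past the minimum, 1 lower (Dmbt1), beside 2.84% of all genes, and none higher. Cdhr2 and Cdhr5, adhesion proteins of the brush border, had ratios of 1.75 and 1.61, and the keratin Krt20 1.45. Among FoxO and Notch genes 5 of 31 and 2 of 22 passed and none was past 2-fold, and Foxo3 and Foxo4, below the minimum, had ratios of 1.13 (0.811 to 1.59) and 0.966 (0.688 to 1.38). Of genes that mark the length of the intestine 4 of 20 passed, and Fabp6 was the 1 past 2-fold, being lower, beside 2.84% of all genes. Of beta cell genes 1 of 18 passed, Iapp, and of stem markers 1 of 8. Iapp was higher in enteroendocrine cells, at 102.6 CPM in WT and 615 in NFKO. In NFKO 1 mature goblet cell held 406 of the 776 Iapp UMIs.

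Levels also varied along score A within each library, which the rule makes partly by construction. From A of 0.5 to 1 up to A above 2, Tff3, outside the score, stood at 35827, 66775, 81671 and 91618 CPM in WT, and at 28350, 71676, 103546 and 115408 in NFKO. Spink4 peaked in the second band in both libraries, at 38064 and 23244. Ido1 went from 1.99 to 502 in WT and from 31.2 to 1292 in NFKO, and Krt20 from 354 to 1362 and from 419 to 1142. The 4 bands held 69, 118, 44 and 16 cells in WT and 145, 244, 291 and 402 in NFKO, so that the last WT band rests on few cells.

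Other genes went down along the score. Reg3b went from 46549 to 6425 in WT and from 37001 to 7007 in NFKO, and Pigr from 2149 to 1208 and from 923 to 500. Dmbt1 lay almost wholly in the lowest band, at 1122 in WT and 526 in NFKO, with 23.5 and 77.8 in the band above. Mptx1 was highest in the second band of NFKO, at 3901, and stayed above WT in every band. Depth went down with the score too, with a Spearman rho of A with UMIs of -0.47 over 246 WT cells and -0.43 over 983 NFKO cells deep enough to thin, given as a description, and its part in these gradients was not tested.

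**Figure D5:**
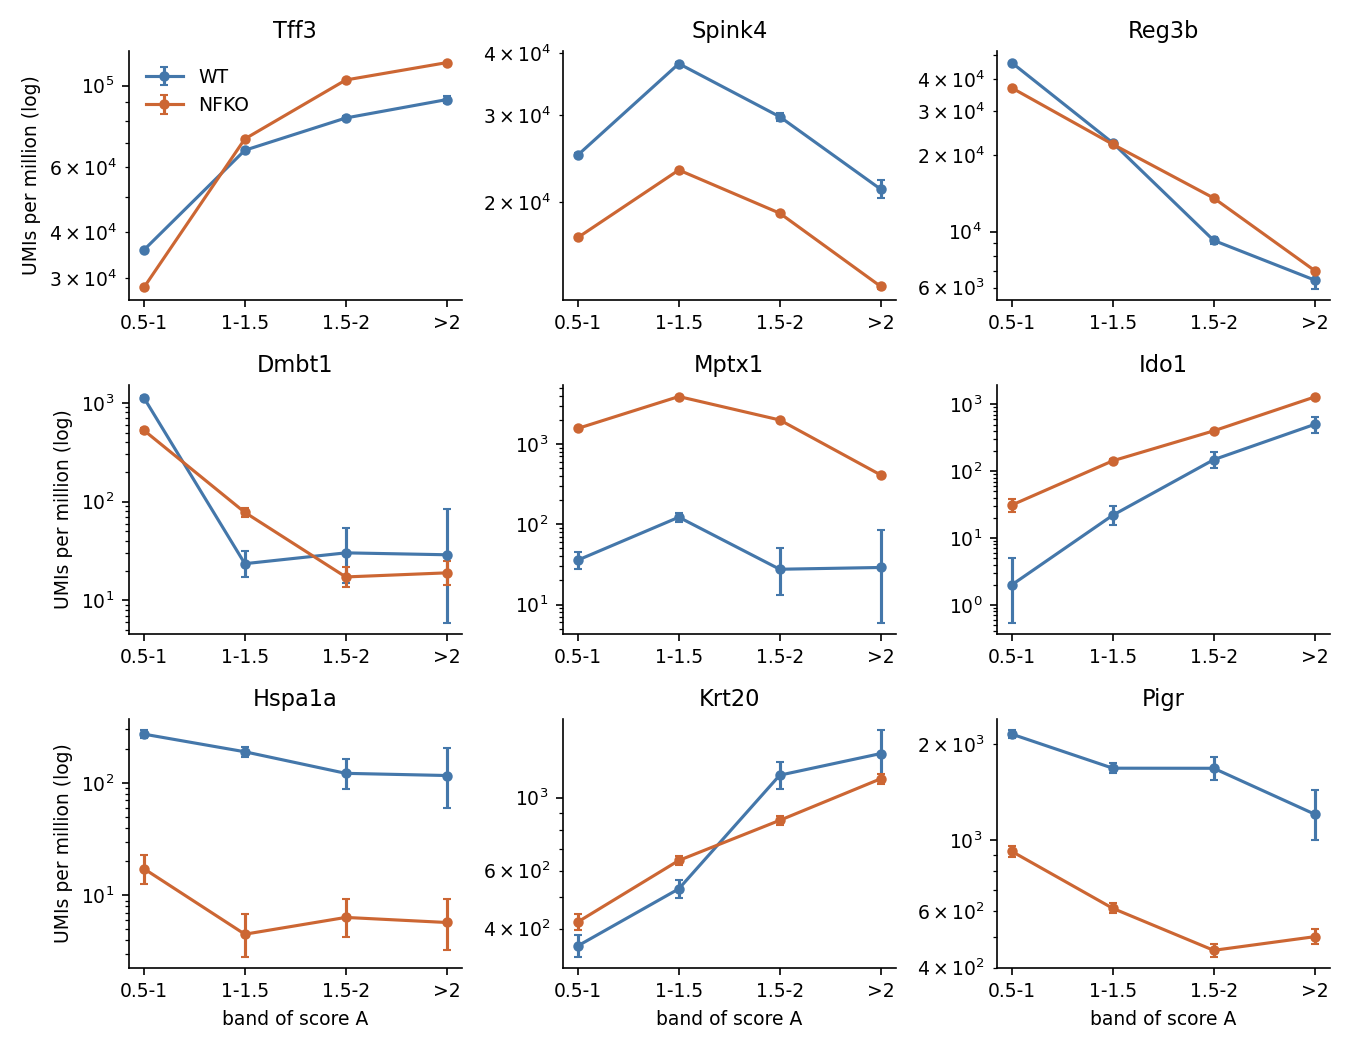
CPM (log axis) of 9 genes in mature goblet cells of WT (blue) and NFKO (orange) in 4 bands of score A, with 95% Poisson intervals. Tff3 and Krt20 go up and Reg3b goes down along the score in both libraries, while Hspa1a is lower and Mptx1 and Ido1 are higher in NFKO in every band.

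Cells of 1 library differed most from each other in few genes. Ranked by variance over mean after thinning, the first in WT were Gm42418, a locus that overlaps ribosomal RNA sequence (350), Nts (88.4), Fabp6 (76.2), Reg3b (48.7), Tff3 (47.6), Defa24 (43.5), the nuclear RNA Malat1 (38.7), Spink4 (36.0), Chgb (22.6) and mt-Atp6 (21.9). In NFKO hormones took most places, with Gip (278), Sst (190), Gm42418 (153), Nts (147), Ghrl (112), Cck (84.3), Sct (81.0), Apoa4 (64.4), Fabp6 (61.3) and Pyy (57.1). Nts in WT was the matter of 1 cell, which held 189 of its 280 UMIs.

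Set beside crypt-type goblet cells of the same library, the mature cells carried more enterocyte-like transport genes and fewer genes of cell division and heat shock. This contrast was fixed by the rule and is a description. In both libraries 103 of 2537 genes had 2-fold or higher levels in mature cells (4.06%) and 172 had 2-fold or lower ones (6.78%), 97 and 170 of them outside the rule. Fabp6 was 23.5-fold higher in WT and 33.9-fold higher in NFKO, Apoa1 14.4 and 19.5, Fabp1 12.9 and 14.0, Gsta4 10.9 and 12.8, and the aminopeptidase Anpep 8.88 and 8.73. Of the lists, 8 of 9 lipid genes tested here were at least 2-fold higher in both, and so were 7 of 8 enterocyte markers. The 2 lists share Fabp1, Fabp2, Apoa1 and Rbp2. Fabp2, at 1.28-fold in WT and 2.06-fold in NFKO, was the exception in both lists. These folds are of summed counts, and the median cells lay closer together. Enterocyte markers took 0.0868% of UMIs in the median mature cell and 0.0751% in the median crypt-type cell of WT, and 0.117% and 0.0638% in NFKO. Fabp6 was seen in 29.96% of WT and 12.9% of NFKO mature cells. Krt20 was 4.05-fold and 5.24-fold higher, and the brush border mucin Muc3 5.21-fold and 12.9-fold higher.

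Outside the 12 genes of the scores, the lowest gene against crypt-type cells was Rnase1, a ribonuclease (0.0695-fold in WT and 0.119-fold in NFKO). The cell division genes Birc5 (0.147 and 0.215) and Ube2c (0.223 and 0.159) followed, with Srm (0.225 and 0.151), which makes spermidine, and Vgll4 (0.233 and 0.197). Of the cycling markers, 5 of 6 were lower in both, beside 6.78% of all genes. Itln1 was lower as well, at 0.251 and 0.317, and so were Hspd1 and Hspe1, the mitochondrial chaperone pair, at 0.450 and 0.289 and at 0.397 and 0.258. Heat shock genes were at least 2-fold lower in both libraries in 5 of 8 cases, beside 6.78% of all genes. Hsp90aa1 at 0.478 and 0.460 and Dnajb1 at 0.431 and 0.392 were among them.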

How the data were processed

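The authors sorted tomato-reporter cells, made 10x 3′ libraries and deposited raw UMI counts per gene and barcode; per the submitters' processing notes they used Cell Ranger 5.0.1 and mm10, and the annotation release is not given in the sources used here. From these counts the cells were chosen as described, counts were summed per library, and levels were taken in CPM, the UMIs per 1000000 UMIs of those cells, with exact Poisson and binomial 95% intervals (Clopper-Pearson for shares, a conditional binomial for ratios). With 1 library per group no test was made. Intervals and floors (3 counts in the library) cover counting error only.

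The members, gene lists and comparisons were chosen with earlier results of these data known. The genes named were the 12 genes of the scores and goblet markers, members of the lists, the 10 highest and 10 lowest ratios past a minimum of 100 UMIs over both libraries and 50 CPM in the higher, leaving out 5 sex genes, and the 10 most variable genes of each library. Shares of cells were computed after thinning to 2000 UMIs. Doublets were kept. Scrublet (scanpy 1.11.5) marked 3 and 0 barcodes by its own limit and so had not worked, and the highest scores, 0.8% per 1000 barcodes, were removed only as an alternative. 13 alternatives were planned together with the comparisons and 3 (at most 1% hormone UMIs, NFKO weighted to 4 WT bands of score A, and levels outside the 6 genes of score A) were chosen after seeing the data. Scripts were tested on simulated data. A result for 1 listed gene is not reported here.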

Additional observations from a re-analysis of the deposited data

Results flagged for a closer look

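Cck, Ghrl, Gip and Sct were lower in mature than in crypt-type goblet cells of WT and higher in those of the library labelled NFKO. The folds of mature over crypt-type cells were 0.178, 0.181, 0.323 and 0.496 in WT and 4.353, 2.946, 3.142 and 2.03 in NFKO. The difference was not tested, since each group is 1 library. More than 1% of UMIs came from hormones in 18 of 896 WT crypt-type cells (2.01%) and 69 of 1344 NFKO ones (5.13%), beside 0.405% and 7.58% of mature cells. Among cells with at most 1% hormone UMIs the folds of Cck, Ghrl, Gip and Sct were 1.10, 1.74, 1.22 and 0.943 in WT and 2.02, 2.47, 1.99 and 1.31 in NFKO, so that in this set Sct alone still had opposite directions.

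Barcodes outside the filters on depth and mitochondrial share, which entered no comparison, held cells that met the score rule. They were 238 of 1908 in NFKO (12.47%, 11.02 to 14.04) and 32 of 1922 in WT (1.66%, 1.14 to 2.34). In NFKO their median was 952 UMIs and 188 of them were under the depth limits, while in WT 28 of 32 were over the mitochondrial limit.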

How the results depend on the processing

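No paired analysis was possible because each group is 1 library. 16 other settings were tried for the ratios of genes and lists and the counts of genes; those that do not choose cells (scaling, level minimum, weighting) do not touch shares, and thinned shares, levels by band of score A, the variance ranking and barcodes outside the filters were computed once. The ratio of the share of mature goblet cells stayed above 1 in all that gave it, from 1.38 with z-scores within each library to 3.41 over every deposited barcode, with 1.89 at 5000 or more UMIs, 2.92 with A above 1 and 3.17 with cells under 0.1% heat shock UMIs. The count of genes 2-fold higher, 81, was 123 with z-scores within each library, 308 with a minimum of 10 CPM, and 131 outside the genes of score A. The count 2-fold lower, 71, was 319, 231 and 41 under the same settings, 147 without the highest Scrublet scores, 119 in male-typed cells, 44 with median-of-ratios scaling and 40 with NFKO weighted to WT score A. With z-scores within each library the heat shock median was -1.84 and 62 genes were higher than in crypt-type cells in both libraries, beside 103. Of values for single named genes, 9 reversed: Gcg to 0.598 over every deposited barcode and 0.657 with A above 0.2, Dmbt1 to 1.72 and Reg1 to 44.0 with A above 1, and in male-typed cells Chga to 0.434, Chgb to 0.188, Cpe to 0.995, Neurod1 to 0.243 and Sox4 to 0.628. The cause was not tested. With 1 library per group no value has a check against the spread between mice, and a gene with no count in a library was not detectable at this depth.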
